A study of Mus musculus with 32 samples.

Results

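The liver transcripts described here are those of 6 mouse genes, Ly6d, Sdcbp2, Tinag, Moxd1, Cnmd and Avpr1a, which stood near the ends of the ranking of genes by their difference between a Western and a normal diet and whose role there is unclear. They were chosen on that difference, in results of these same mice, so their diet differences are given as descriptions, with no test. Each gene was read by 1 probe of 56605 non-control probes. The probes of 5 genes were found by the gene name in the array files, and that of Cnmd, which the files call Lect1, by its RefSeq accession. All 6 probes passed the filter on dim probes, which left 35777 probes and 23633 genes.

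Liver RNA came from 32 male F1 C57BL/6J mice aged 21 weeks, 1 mouse per one-colour (Cy3) array and 8 mice in each of 4 groups. The groups were normal diet controls, normal diet mice given E171, Western diet controls and Western diet mice given E171. E171 is a food-grade titanium dioxide, a white pigment, mixed into pellets to reach a daily intake of 10 mg for each kg of weight. Females of the F0 generation, 8 weeks old, ate pellets with or without it for 40 days before mating, and their offspring kept the mother's treatment for 21 weeks. The Western diet, called a high-fat diet in the treatment protocol, replaced the normal diet at 5 weeks of age, for 16 weeks. The question in the labels is whether diet aggravates the response to the additive. Litters are not named in the labels, so the p-values measure the spread between mice, some of which may be littermates.

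Each of 4 slides carried 2 mice from all groups. Between 32164 and 37261 probes per array were well above background, which is Feature Extraction's flag for a spot clearly brighter than its surroundings, and 0 non-control spots were saturated. Arrays of a group correlated at 0.981 to 0.996. The number of arrays limits the precision of all values. All 8 hepatocyte markers (Alb, Apoa1, Ttr, Trf, Fgb, Ahsg, Tat, Cyp2e1) were well above background on 32 of 32 arrays. Levels below are log2 intensities relative to the 75th percentile of the same array, so 0 is that percentile. In whole liver, fewer cells of a type and less RNA per cell cannot be told apart.

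The 6 genes belong to unrelated families. Ly6d is a small cell-surface protein held by a lipid anchor, a member of the Ly6 family, known from B cell precursors and squamous epithelium. Sdcbp2 (syntenin-2) is a PDZ-domain scaffold that binds syndecan tails and membrane phosphoinositides, and Tinag is an extracellular protein of kidney tubule basement membranes. Moxd1 resembles the copper-dependent monooxygenase dopamine beta-hydroxylase, and no substrate is firmly established for it. Cnmd (chondromodulin) is a cartilage glycoprotein that restrains vessel growth. Avpr1a is the vasopressin receptor of hepatocytes and smooth muscle, a G protein-coupled receptor that acts through Gq, phospholipase C beta and release of calcium by inositol trisphosphate receptors.

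The probes are oligonucleotides of 60 bases, and the first 30 bases of each are shown because every level below was read with 1 such oligonucleotide.
Ly6d: caggacaggaagatgtggcttgtgtcccag
Sdcbp2: ctgggtattgcagggatgtgtcccaggtga
Tinag: ccaactgacaagttcagatgatccatagct
Moxd1: cactcagtgctaccctctgggtcgatctga
Cnmd: ggtaacgcaggccctggaagactgagtaac
Avpr1a: atgggcttggtaacactcacctcacagggt

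In the mm9 positions of the array files, the probes lie at chr15:74592551-74592610 (Ly6d, minus strand), chr2:151415409-151415468 (Sdcbp2, plus), chr9:76799672-76799731 (Tinag, minus), chr10:24022208-24022266 (Moxd1, plus), chr14:80041733-80041792 (Cnmd, minus) and chr10:121890416-121890475 (Avpr1a, plus). The exon or UTR each one falls in was not determined here.

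Promoters of 5 of the 6 genes were matched by symbol in RefSeq (GRCm38.p6), and the 250 bases before the start are shown for Moxd1 and Avpr1a, which hold matches to the motifs searched, and for Tinag and Cnmd, which hold none. Capitals mark matches on either strand to 6 motifs: the nuclear receptor half-site letters AGGTCA, the core promoter element TATAAA, the STAT motif TTCNNNGAA, the AP-1 motif TGANTCA, the E-box CACGTG and the CCAAT box. Motifs that read the same on both strands were counted once per position.
Moxd1, chr10:24223267-24223516, plus strand: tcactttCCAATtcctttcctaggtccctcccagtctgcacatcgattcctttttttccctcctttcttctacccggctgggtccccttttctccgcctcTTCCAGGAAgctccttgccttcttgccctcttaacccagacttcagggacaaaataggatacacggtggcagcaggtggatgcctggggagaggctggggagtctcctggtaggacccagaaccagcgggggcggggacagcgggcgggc
Avpr1a, chr10:122448249-122448498, plus strand: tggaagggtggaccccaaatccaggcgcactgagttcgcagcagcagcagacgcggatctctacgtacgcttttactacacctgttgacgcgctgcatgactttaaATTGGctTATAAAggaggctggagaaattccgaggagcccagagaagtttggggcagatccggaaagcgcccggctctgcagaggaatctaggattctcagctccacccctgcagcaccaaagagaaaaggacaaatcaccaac
Tinag, chr9:77045782-77046031, minus strand: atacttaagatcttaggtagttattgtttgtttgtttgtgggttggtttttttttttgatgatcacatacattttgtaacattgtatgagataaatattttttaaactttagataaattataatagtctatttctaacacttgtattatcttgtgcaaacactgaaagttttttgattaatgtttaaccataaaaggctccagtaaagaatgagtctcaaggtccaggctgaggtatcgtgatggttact
Cnmd, chr14:79662184-79662433, minus strand: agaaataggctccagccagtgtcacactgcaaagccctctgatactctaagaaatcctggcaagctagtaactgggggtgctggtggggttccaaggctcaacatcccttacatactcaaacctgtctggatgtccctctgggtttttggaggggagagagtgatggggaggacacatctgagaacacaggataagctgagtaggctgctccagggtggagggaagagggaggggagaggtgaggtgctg

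The Moxd1 sequence holds TTCCAGGAA 150 to 142 bases before the start, a match to the STAT motif that 7.02% of 32851 promoters of this length have. Avpr1a holds TATAAA 137 to 132 bases before the start (12.4% of promoters), and Moxd1, Avpr1a and Sdcbp2 hold CCAAT or its reverse complement (33.8%). Sdcbp2, which is not printed, holds TGAGTCA 44 to 38 bases before the start, a match to the AP-1 motif that 6.75% have. None of the 6 motifs was found in the windows of Tinag and Cnmd, and AGGTCA (14.0% of promoters) and CACGTG (6.02%) were in none of the 5. The Tinag window is rich in A and T, with 28.8% G and C and 1 CpG, against a median of 52.4% and 6 CpG over all promoters. The Cnmd window has 54.0% G and C but 0 CpG, and that of Avpr1a has 12 CpG. These matches are letters in a window and do not show binding.

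Ly6d, Sdcbp2 and Tinag stood higher on the Western diet and Moxd1, Cnmd and Avpr1a lower, with and without E171. For 5 of the 6 genes the Western and normal diet mice did not overlap in either comparison, and Moxd1 overlapped in both. Over all genes the diets stood apart in 9.96% without E171, in 18.0% under E171 and in 7.39% in both comparisons. Of all genes 47.3% passed the test of diet without E171 and 53.2% under E171, and nothing is read from the members' count, since this contrast chose them.

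**Figure D1:**
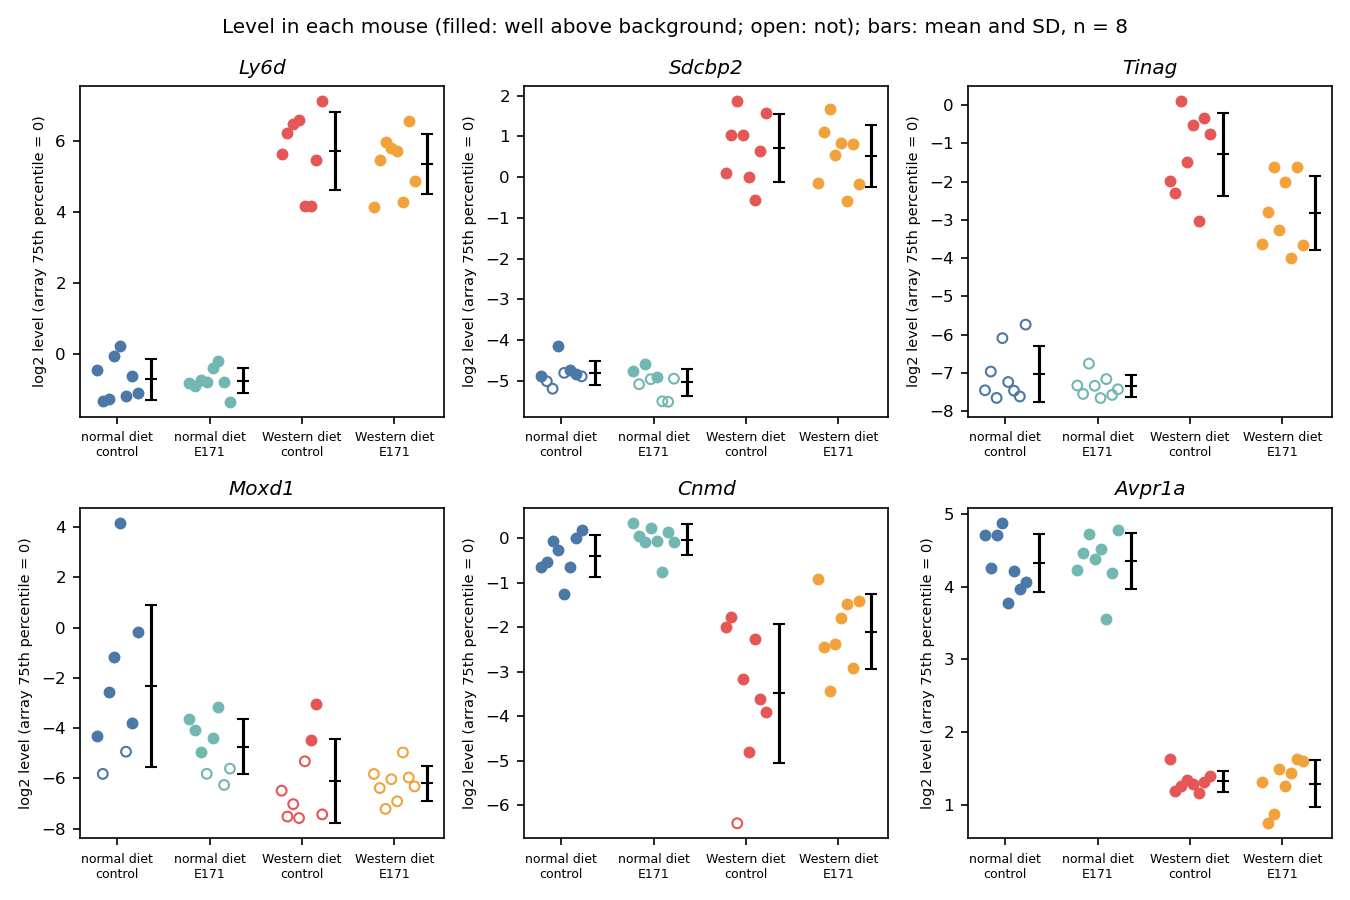
Level of each of the 6 genes in every mouse (vertical axis, log2, array 75th percentile = 0) in the 4 groups of 8 mice (horizontal axis); filled points are well above background, open ones not, and bars give mean and SD. Ly6d, Sdcbp2 and Tinag separate the diets upward and Avpr1a downward. Cnmd separates them downward within the controls and within the E171 mice, and 1 normal diet control stands at 4.17 for Moxd1.

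Ly6d was well above background on all 32 arrays. Its level in normal diet controls ran from -1.33 over a median of -0.86 to 0.23, and in normal diet E171 mice from -1.35 over -0.79 to -0.20. In Western diet controls it ran from 4.17 over 5.94 to 7.14 and in Western diet E171 mice from 4.15 over 5.61 to 6.57. The lowest Western diet mouse thus stood well above the highest normal diet mouse, while the groups with and without E171 overlapped on each diet. In deposited intensity units the medians were 140 and 151 on the normal diet and 19600 and 14300 on the Western diet. The diet difference was 6.46 (SE 0.37, log2) without E171 and 6.12 (SE 0.37) under E171, that is 88.1-fold and 69.3-fold, the 3rd and 4th highest of 23633 genes. The Western diet groups also varied more between mice, with an SD of 1.1 and 0.85 against 0.59 and 0.34.

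Sdcbp2 was dim on the normal diet, with 4 of 8 controls and 3 of 8 E171 mice well above background, and was so on 8 of 8 arrays of both Western diet groups. Its level ran from -5.19 over -4.84 to -4.15 in normal diet controls and from -5.51 over -4.95 to -4.58 in normal diet E171 mice. In Western diet controls it ran from -0.56 over 0.83 to 1.86, and in Western diet E171 mice from -0.60 over 0.68 to 1.68. Every Western diet mouse was above every normal diet mouse, and E171 and control mice of a diet overlapped. The median intensities were 8.73 and 8.27 against 533 and 426, and the diet differences were 5.52 (SE 0.29) and 5.54 (SE 0.29). Because the probe was near background on the normal diet, this size depends on the background correction. It was 2.83 and 2.65 with normexp, a model-based correction with an offset of 50, and 4.04 and 3.96 in the authors' deposited values.

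Tinag was not well above background in any of the 16 normal diet mice and was so in all 16 Western diet mice. The measured level ran from -7.66 over -7.35 to -5.74 in normal diet controls and from -7.66 over -7.39 to -6.76 in normal diet E171 mice, at median intensities of 1.59 and 1.43. In Western diet controls it ran from -3.03 over -1.12 to 0.11, and in Western diet E171 mice from -4.0 over -3.03 to -1.61. These Western diet groups overlapped, with the E171 mice in the lower range. In the intensities used here, Tinag was at least 14.8-fold higher on the Western diet without E171 and at least 5.02-fold higher under E171. These bounds are against the lowest signal well above background on each array. The measured means were -1.29 against -7.03 and -2.82 against -7.35, and these differences moved to 1.67 and 0.77 with normexp and to 3.00 and 1.72 in the authors' deposited values. Those log2 differences lie below the bounds, which therefore depend on the background correction.

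Avpr1a was well above background on all 32 arrays with SDs from 0.15 to 0.40 within groups. Its level ran from 3.78 over 4.24 to 4.88 in normal diet controls and from 3.56 over 4.42 to 4.78 in normal diet E171 mice. In Western diet controls it ran from 1.16 over 1.30 to 1.62, and in Western diet E171 mice from 0.74 over 1.37 to 1.63. Each diet formed a band of its own, and E171 and control mice overlapped within both. The diet difference was -3.0 (SE 0.16) without E171 and -3.07 (SE 0.16) under E171, that is 8.02-fold and 8.38-fold lower. Within the 4 slides the difference without E171 lay between -3.07 and -2.87, and no mouse left out moved it outside -3.08 to -2.92.

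Cnmd, known as a cartilage transcript, was well above background in all 16 normal diet mice and in 15 of 16 Western diet mice. Its level ran from -1.26 over -0.40 to 0.17 in normal diet controls and from -0.77 over -0.01 to 0.35 in normal diet E171 mice. In Western diet controls it ran from -6.40 over -3.38 to -1.77, and in Western diet E171 mice from -3.44 over -2.09 to -0.91. The diets did not overlap in either comparison, without or under E171. Across the comparisons, the highest Western diet E171 mouse (-0.91) stood above the lowest normal diet control (-1.26). The control group on the Western diet was the most spread of the 4, with an SD of 1.57 against 0.46 in normal diet controls. The diet difference was -3.08 (SE 0.45) without E171 and -2.07 (SE 0.45) under E171. It was -1.60 without E171 with normexp. Of the 6 chondrocyte markers, Acan and Matn1 were well above background on 0 of 32 arrays, Comp on 2, Col9a1 on 8, Col2a1 on 31 and Sox9 on 32. Col2a1, a fibrillar collagen, rose by 2.24 (SE 0.29, limma adjusted p = 3.42e-07) on the Western diet without E171, and Sox9 stood at 0.01 (adjusted p = 0.958).

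Moxd1 had the largest SD of the 6 genes in every group except the Western diet E171 mice (0.69). In normal diet controls its level ran from -5.82 over -3.19 to 4.17 (SD 3.23), and 6 of 8 arrays were well above background. In normal diet E171 mice it ran from -6.26 over -4.67 to -3.16, with 5 of 8 arrays well above background. In Western diet controls it ran from -7.57 over -6.75 to -3.02 (2 of 8 arrays) and in Western diet E171 mice from -7.21 over -6.17 to -4.96 (0 of 8). The highest normal diet control, replicate 5, reached an intensity of 3860 against a group median of 30.1. The diet difference without E171 was -3.77 (SE 0.93), and -2.84 without that mouse. Within the 4 slides it ran from -8.79, on the slide that held that mouse, to -0.86, and it was -1.48 with normexp. Under E171 the measured means were -6.20 on the Western diet against -4.74 on the normal diet. That difference was -1.46 (SE 0.93), with a 95% interval of -3.35 to 0.43 that includes 0. It was -0.30 (SE 0.50) with normexp and -0.51 (SE 0.62) in the authors' deposited values. Against the lowest signal well above background on each array, the mean was at least 1.38-fold lower in the intensities used here. The normexp difference lies below that bound, which therefore depends on the background correction. The Moxd1 level also went with the 75th percentile of the array, taken as a measure of overall brightness, within groups (r = -0.451, rho = -0.458, permutation test, adjusted p = 0.0185 over 6 genes, r = -0.464 without the 2 most extreme arrays). That percentile averaged 255 in normal diet controls and 248 in normal diet E171 mice, against 300 and 280 in the same groups on the Western diet. The part of array brightness in the diet difference was not tested.

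Ordered by median, Ly6d, Sdcbp2 and Tinag were lowest in the normal diet groups and highest in Western diet controls. Avpr1a and Cnmd ran the other way, with normal diet E171 mice highest, and Moxd1 fell from normal diet controls over normal diet E171 mice to the Western diet. Neighbouring groups in these orders overlapped, except where the diets met for Ly6d, Sdcbp2, Tinag and Avpr1a. For Cnmd the diets met at Western diet E171 mice (-3.44 to -0.91) and normal diet controls (-1.26 to 0.17), which overlapped.

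The E171 difference averaged over both diets does not share the diet contrast that chose the genes, and it was tested. None of the 6 genes passed (limma, adjusted over 23633 genes), while 88 genes in all passed, 0.372% of those tested. An unadjusted p under 0.05 was reached by 2 of the 6 genes and by 2599 genes in all, 11.0% of those tested. Tinag stood at -0.93 under E171 (SE 0.28, 95% interval -1.50 to -0.35, unadjusted p = 0.00247, limma adjusted p = 0.143). Its part on the normal diet came from arrays where the probe was not well above background, and on the Western diet the difference was -1.53 (SE 0.40), with 3 of 8 controls inside the range of the E171 mice and 4 of 8 E171 mice inside that of the controls. Within slides the averaged Tinag difference ran from -1.25 to -0.56.

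Cnmd stood at 0.88 (SE 0.32, 95% interval 0.23 to 1.53, limma adjusted p = 0.26) under E171, averaged over diets. That was 1.39 (SE 0.45) on the Western diet and 0.37 (SE 0.45) on the normal diet, and 0.49 to 1.53 within slides. Moxd1 stood at -1.25 (SE 0.65, 95% interval -2.59 to 0.08, limma adjusted p = 0.494), and at -0.79 without normal diet control replicate 5. Its part on the normal diet was -2.41 (SE 0.93), and on the Western diet, where 2 of 16 arrays were well above background, no difference is read. The values were -0.20 for Ly6d (95% interval -0.74 to 0.33, limma adjusted p = 0.834), -0.21 for Sdcbp2 (-0.63 to 0.21, adjusted p = 0.767) and 0.00 for Avpr1a (-0.23 to 0.23, adjusted p = 0.998). These intervals leave room for differences of the size of their bounds. The diet difference under E171 minus that without it was -1.21 (SE 0.56) for Tinag, 2.32 (SE 1.31) for Moxd1, 1.01 (SE 0.63) for Cnmd, -0.35 (SE 0.53) for Ly6d, 0.02 (SE 0.41) for Sdcbp2 and -0.06 (SE 0.23) for Avpr1a, given as descriptions because they share mice with the contrasts that chose the genes. Those of Tinag and Moxd1 rest on groups mostly or wholly at background, Tinag on 0 of 16 normal diet arrays and Moxd1 on 2 of 16 Western diet arrays well above it, so their sizes are not firm.

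**Figure D2:**
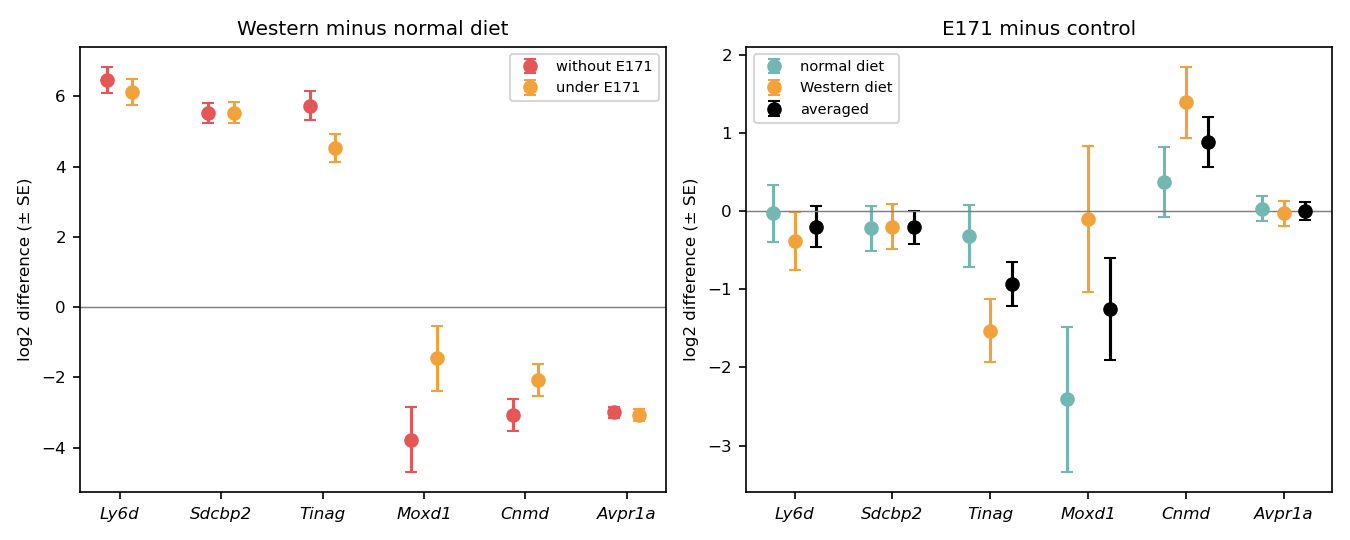
Log2 differences with SE for the 6 genes (horizontal axis): Western minus normal diet without and under E171 on the left, and E171 minus control on each diet and averaged on the right. The diet differences of Ly6d are 6.46 and 6.12, while the averaged E171 differences lie between -1.25 for Moxd1 and 0.88 for Cnmd.

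Since the mice of a group differed widely, the genes were compared by each mouse's deviation from its group mean, which the choice of genes did not use. Over 32 mice, 3 of 15 pairs were related (two-sided permutation within groups, adjusted over 15 pairs, with an unadjusted p of at most 0.00129 for these). Ly6d and Sdcbp2 rose together (r = 0.748, rho = 0.729, adjusted p = 0.0018, r = 0.676 without the 2 mice with the most extreme Ly6d), as did Sdcbp2 and Tinag (r = 0.653, rho = 0.532, adjusted p = 0.00645, r = 0.535 without 2 mice). Tinag and Cnmd moved in opposite directions (r = -0.66, rho = -0.624, adjusted p = 0.00645, r = -0.569 without 2 mice). All values come from the same arrays and the same scaling.

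The relations rested on the Western diet mice. Among these 16 mice Ly6d and Sdcbp2 had r = 0.851 (permutation, adjusted p = 0.0015), Sdcbp2 and Tinag 0.711 (adjusted p = 0.021) and Tinag and Cnmd -0.821 (adjusted p = 0.0015). Among the 16 normal diet mice the same pairs had 0.237, 0.407 and 0.193, and 0 of 15 pairs passed. Sdcbp2 and Tinag were at or near background there. In the Western diet mice Moxd1 also ran against Ly6d (r = -0.646) and Sdcbp2 (r = -0.615), and Cnmd against Sdcbp2 (r = -0.602), each with an adjusted p of 0.0435. Moxd1 was well above background in only 2 of these 16 mice, so its values there lie mostly at background. Whether the relation itself differs between diets was not tested.

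The deviations were then set against the mean level of 7 lists of marker genes, 42 relations in all, of which 13 passed, 5 positive and 8 negative, and 9 of these by Spearman's rho as well (unadjusted p of these 13 from 1e-05, the smallest 100000 permutations can give, to 0.00974). Ly6d fell as male-biased liver genes rose (r = -0.832, rho = -0.766, permutation adjusted p = 0.00042, -0.84 without 2 mice). That list, the genes Hsd3b5, Cyp7b1, Elovl3, Slco1a1, Cyp2d9, Cyp4a12a and Selenbp2, comprises enzymes and carriers that male mouse liver makes in excess of female liver. Sdcbp2 did the same (r = -0.837, rho = -0.697, adjusted p = 0.0007, -0.773 without 2 mice). In Western diet mice alone these were -0.925 and -0.928, both with an adjusted p of 0.000315, and in normal diet mice -0.23 and 0.041.

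**Figure D3:**
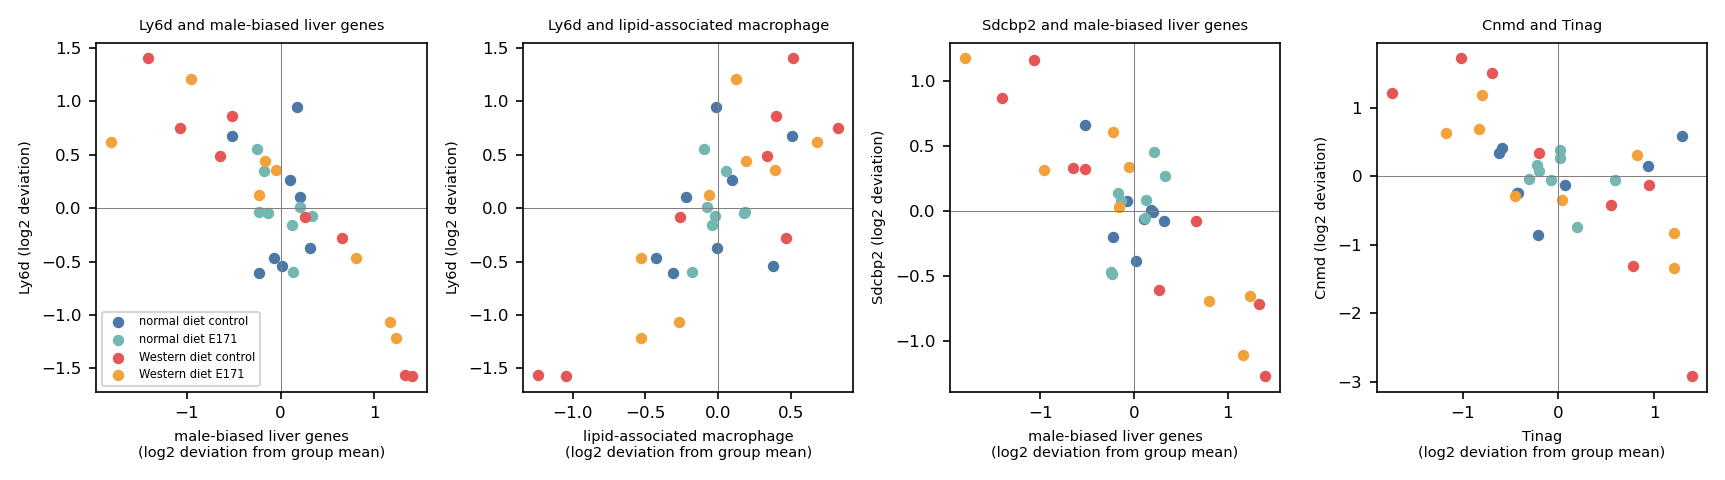
Each mouse's log2 deviation from its group mean for 4 relations, a point per mouse, coloured by group: Ly6d against male-biased liver genes and lipid-associated macrophage markers, Sdcbp2 against male-biased liver genes, and Cnmd against Tinag. The Western diet mice span the wide range on both axes, and over all 32 mice r is -0.832, 0.765, -0.837 and -0.66.

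Ly6d and Sdcbp2 rose with the markers of lipid-associated macrophages, the cells that take up lipid in fatty liver (r = 0.765, rho = 0.713, adjusted p = 0.00115, and r = 0.755, rho = 0.674, adjusted p = 0.0007). Without the 2 mice of most extreme list level these were 0.637 and 0.699. Both genes fell as the hepatocyte list rose (Ly6d r = -0.642, rho = -0.526, adjusted p = 0.00936, and -0.501 without 2 mice; Sdcbp2 r = -0.716, rho = -0.659, adjusted p = 0.00218, and -0.667). Ly6d also ran against the periportal list (r = -0.577, rho = -0.419, adjusted p = 0.0265, and -0.439 without 2 mice). Sdcbp2 ran against the pericentral list (r = -0.581, rho = -0.321, adjusted p = 0.0292, and -0.47 without 2 mice). The periportal relation of Ly6d and the pericentral one of Sdcbp2 did not pass by rho (permutation adjusted p = 0.0908 and 0.247). The 2 relations with hepatocyte markers were -0.901 and -0.854 in Western diet mice and 0.462 and 0.006 in normal diet mice. After quantile normalization, which equalises the intensity distribution of the arrays, Sdcbp2 with the hepatocyte list was -0.405 (adjusted p = 0.175), Sdcbp2 with the pericentral list -0.547 (0.0589) and Ly6d with the periportal list -0.521 (0.0696).

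Tinag and Cnmd went in opposite directions with pericentral hepatocyte markers, the genes of the zone around the central vein such as Glul, Oat and Cyp1a2. Tinag had r = -0.651 (rho = -0.589, adjusted p = 0.00936, -0.593 without 2 mice) and Cnmd r = 0.655 (rho = 0.464, adjusted p = 0.019, 0.453 without 2 mice). These were -0.865 and 0.765 in Western diet mice and 0.305 and -0.163 in normal diet mice. By rho the relation of Cnmd over all mice did not pass (permutation adjusted p = 0.0897). Moxd1 rose with the hepatocyte list (r = 0.41, rho = 0.463, adjusted p = 0.0278, 0.422 without 2 mice) and the male-biased list (r = 0.366, rho = 0.487, adjusted p = 0.0141, 0.329 without 2 mice). The Moxd1 probe was well above background on 13 of the 32 arrays. Neither relation passed after normexp (r = 0.231 and 0.133), and that with the hepatocyte list was 0.109 after quantile normalization. Among all pairs and list relations that passed at the main setting, 3 no longer passed with normexp, these of Moxd1 included. Avpr1a fell with the lipid droplet list (r = -0.452, adjusted p = 0.0315, -0.291 without 2 mice), at -0.764 in normal diet mice and 0.125 in Western diet mice, and its rho of -0.37 did not pass (adjusted p = 0.0955). With slide removed as a block, all 13 list relations and all 3 pairs still passed.

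**Figure D4:**
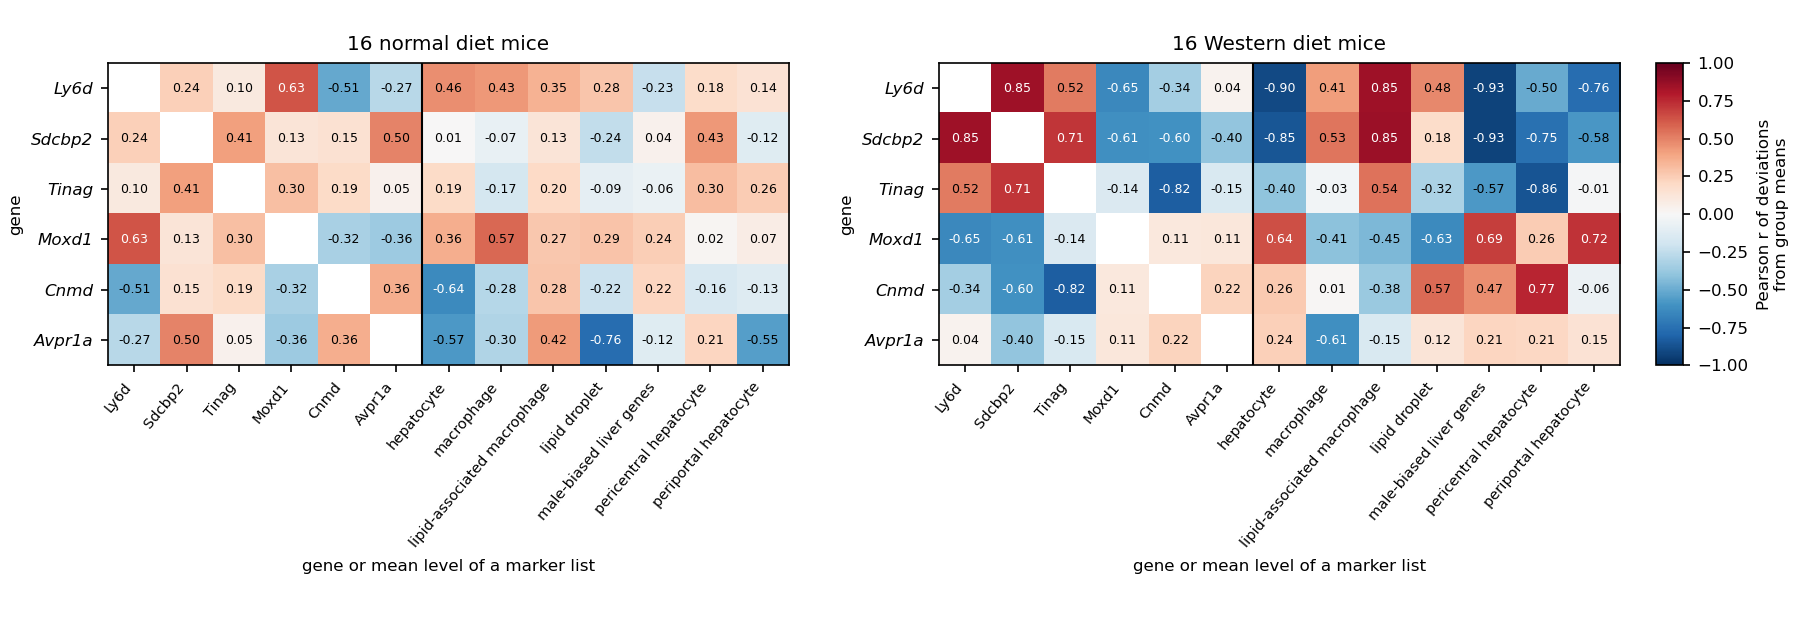
Pearson r of deviations from group means between each of the 6 genes (vertical axis) and the other 5 genes or the mean level of 7 marker lists (horizontal axis), in the 16 normal diet mice on the left and the 16 Western diet mice on the right. Ly6d and Sdcbp2 reach -0.925 and -0.928 with male-biased liver genes on the Western diet, against -0.23 and 0.041 on the normal diet.

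These lists themselves moved with diet, and their part in the diet differences of the 6 genes was not tested. Without E171, 6 of 8 lipid-associated macrophage markers rose and Fabp5 fell (limma, 18.5% of all genes higher and 28.7% lower). The mean level of the list ran from -1.37 to -0.44 in normal diet controls and from 0.42 to 2.48 in Western diet controls. Of the macrophage markers 6 of 8 rose (2.00 to 3.95 against 2.98 to 4.24), of the lipid droplet genes 8 of 9 rose (1.29 to 2.59 against 3.84 to 4.87), and of the cholangiocyte and stellate cell markers 4 of 6 each rose. All 8 hepatocyte markers fell (9.29 to 9.60 against 8.75 to 9.47), as did 6 of 7 male-biased genes (5.40 to 6.24 against 2.24 to 5.05), 3 of 8 pericentral markers with 1 that rose, and 3 of 7 periportal markers. Some hepatocyte falls were small, the smallest that of Trf at -0.16, against a median of -0.10 over all genes. The marker differences are given at the main scaling only, and small ones may depend on it.

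Markers of other tissues in which some of the 6 genes are known were followed as well. Of 6 B cell markers Cd79b rose and Pax5 fell on the Western diet without E171, and the list ran from -2.70 to -2.05 in normal diet controls and from -2.68 to -1.78 in Western diet controls. Of 5 tested keratinocyte markers Trp63 alone rose, and Dsg3 was well above background on 0 arrays. The list stood at -1.92 to -1.62 and -1.89 to -1.60. Of the kidney tubule markers Umod and Kap were well above background on 0 of 32 arrays and Slc12a1 on 1, and of the 3 tested Lrp2 fell. That list ran from -3.37 to -2.78 against -3.45 to -2.88. The chondrocyte list, in which only Col2a1 and Sox9 were tested, ran from -2.42 to -1.45 against -1.37 to 0.07. Of 4 tested adipocyte markers 2 rose and 2 fell.

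The 3 genes most like each of the 6 were taken by Pearson r of deviations over 32 mice, as a description. For Ly6d they were Gas6 (r = 0.909), the ligand of TAM receptor kinases, Uap1l1 (0.892) and Mki67 (0.886), a marker of dividing cells. In Western diet mice alone these had r = 0.951, 0.928 and 0.93. On the Western diet without E171 Gas6 was higher by 1.02 and Mki67 by 2.45 (limma adjusted p = 1.68e-05 and 3.07e-09). For Sdcbp2 they were Cstb (0.885), an inhibitor of lysosomal cysteine proteases, Tnip1 (0.883), a restraint on NF-kappaB signalling, and Golm1 (0.868), a Golgi protein. These had r = 0.932, 0.921 and 0.949 in Western diet mice and 0.531, 0.676 and 0.079 in normal diet mice, where the Sdcbp2 probe was near background.

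For Tinag the most similar genes were Sox9 (r = 0.809), a transcription factor of bile duct cells that is also on the cholangiocyte and chondrocyte lists, the epithelial protease Prss8 (0.804) and the tight junction protein Marveld3 (0.786). Sox9 and Prss8 did not pass the diet test without E171 (log2 differences 0.01 and -0.09, limma adjusted p = 0.958 and 0.841), while they followed Tinag from mouse to mouse, at r = 0.872 and 0.907 in Western diet mice. In normal diet mice r was 0.686 and 0.565. The Tinag probe was not well above background there, so the r over 32 mice rests partly on background values. For Cnmd the genes were Cyp2c37 (0.884), Cyp2c50 (0.877) and Cyp2c54 (0.872), cytochromes P450 that are near-identical copies, so their probes may read each other and may not be separate genes here. Their diet differences without E171 were -1.43, -1.42 and -1.72. For Moxd1 they were Crybb3 (0.801), Antxr2 (0.783) and the bile acid transporter Slc10a2 (0.778), which fell to 0.573, 0.646 and 0.634 without the 2 mice of most extreme Moxd1. For Avpr1a they were Phldb3 (0.757), Gm5065 (0.746) and Klhl8 (0.714), less close than for the other genes.

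Of 92 relatives and partners of the 6 genes, 71 were tested. Without E171, 30 were higher and 12 lower on the Western diet (median difference 0.15, against -0.10 over all genes, 18.5% higher and 28.7% lower). Under E171 34 were higher and 13 lower (median 0.20, against -0.10, with 22.2% and 31.0% of all genes). The 42 called without E171 kept their direction under quantile, normexp and the other percentile scaling, and in the deposited values where they held the probe. Not all still passed: Ly6k and Col4a6 did not with normexp (0.17 and 0.19, limma adjusted p = 0.389 and 0.139). In the deposited values Ly6k and Plcb2 did not (limma adjusted p = 0.0564 and 0.0658).

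**Figure D5:**
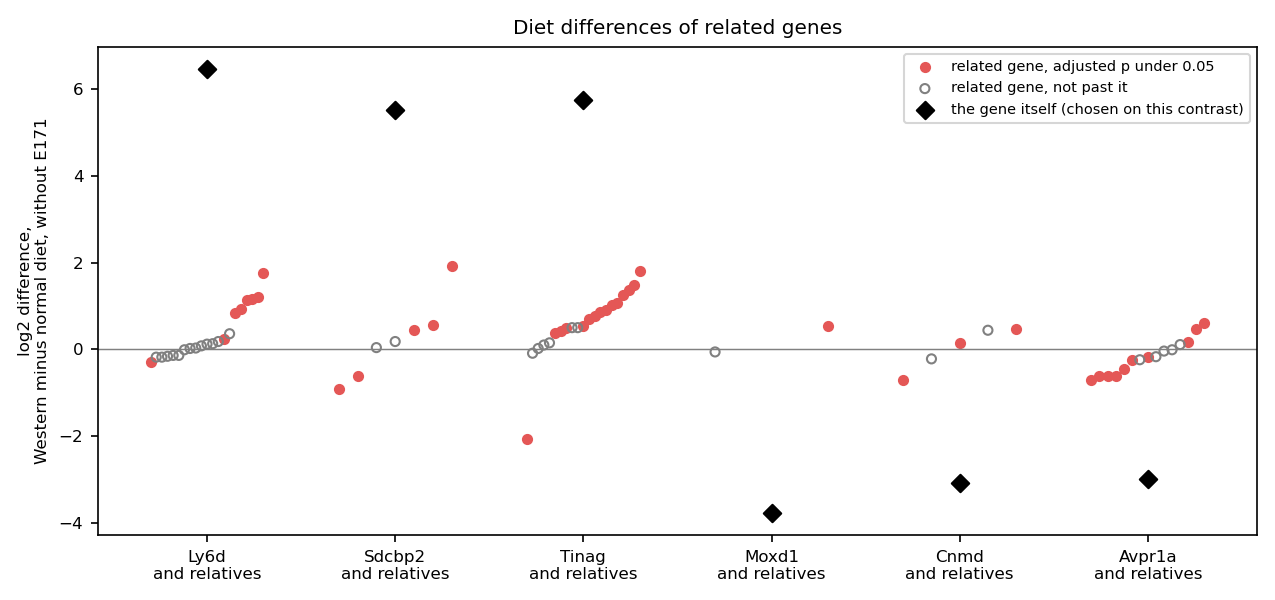
Log2 difference between Western and normal diet without E171 (vertical axis) for the related genes of each of the 6 genes (horizontal axis), filled where the limma adjusted p is under 0.05, with the gene itself, which was chosen on this contrast, as a diamond. The related genes lie between -2.07 for Lama3 and 1.92 for Cd63.

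Of 21 tested relatives of Ly6d, 7 were higher and 1 lower on the Western diet without E171. Plaur, the urokinase receptor and a distant member of the fold, rose by 1.76 (SE 0.21, limma adjusted p = 6.28e-08), Ly6k by 1.14 (0.17 with normexp) and the nicotinic receptor modulator Lynx1 by 0.93. Ly6c1 and Ly6c2 rose by 1.16 and 1.20, near-identical copies whose probes may not tell them apart, and Ly6a by 0.83. Gpihbp1, which carries lipoprotein lipase across endothelium, stood at 0.12 (adjusted p = 0.377).

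Of 7 partners of Sdcbp2, 3 rose and 2 fell. Cd63, a tetraspanin bound by syntenins, rose by 1.92 (SE 0.27, limma adjusted p = 1.02e-06), the paralogue Sdcbp by 0.45 and the syndecan Sdc3 by 0.56. The syndecans Sdc2 and Sdc4 fell by 0.91 and 0.62, and Sdc1 stood at 0.18 (adjusted p = 0.161).

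Of 21 basement membrane genes set beside Tinag, 14 rose without E171 and 18 under E171, and 1 fell in each (median differences 0.53 and 0.74). Lamb3 rose by 1.81 (SE 0.19, limma adjusted p = 5.17e-09), the nidogen Nid1 by 1.49, the laminin chain Lama2 by 1.25 and the type IV collagen chain Col4a1 by 1.08. Lama3, a laminin chain of epithelia, fell by 2.07. Tinagl1, the nearest relative of Tinag, stood at 0.02 (adjusted p = 0.915).

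Of 2 tested relatives of Moxd1, Pam, which amidates peptides, rose by 0.54 (SE 0.12, limma adjusted p = 0.000563) and Dbh stood at -0.06. Of 5 tested genes that share the BRICHOS domain with Cnmd, Itm2c and Itm2b rose by 0.47 and 0.14 and Bricd5 fell by 0.71. Tnmd, the closest relative of Cnmd, was too dim to be tested.

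Around Avpr1a, 7 of 15 receptor and signalling genes fell and 3 rose without E171. Of the other tested receptors that use Gq, 3 fell, the oxytocin receptor Oxtr by 0.71 (SE 0.10, limma adjusted p = 1.61e-06), the angiotensin receptor Agtr1a by 0.62 and the alpha-1B adrenergic receptor Adra1b by 0.61, while the alpha-1A receptor Adra1a stood at -0.17 (adjusted p = 0.318). The calcium release channel Itpr2 fell by 0.62, while Itpr3 rose by 0.61 and Plcb4 by 0.48. Gnaq rose by 0.17 and Gna11 stood at -0.01. The hormone gene Oxt fell by 0.45, and Avp, Avpr1b and Avpr2 were too dim to be tested.

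Genes beside the 6 on their chromosomes, 3 protein-coding ones on each side in RefSeq, were counted in the same way. Of 26 tested, 8 were higher and 2 lower without E171 (18.5% and 28.7% of all genes), and 9 and 7 under E171 (22.2% and 31.0%). Their median differences were -0.03 and 0.01, and whether they stand apart from other genes was not tested. Beside Ly6d the neighbours Lynx1 and Ly6k are the relatives given above. Other neighbours that passed included Ppm1h (1.24) beside Avpr1a, Pcdh17 (1.05) beside Cnmd, and Ccn2 (0.91) and Enpp3 (-0.80) beside Moxd1. No tested neighbour of Sdcbp2 passed without E171, and beside Tinag Lrrc1 rose by 0.60 (limma adjusted p = 0.0348). Lrrc1 did not pass with normexp (0.10, limma adjusted p = 0.207) or quantile normalization (0.57, adjusted p = 0.0525). Under E171 averaged over both diets, 0 of 71 related genes and 0 of 26 neighbours passed (limma), with 3 and 2 at an unadjusted p under 0.05, which 11.0% of all genes reached.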

How the data were processed

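Liver RNA of 32 mice was read on Agilent one-colour arrays. The authors deposited Feature Extraction output with Cy3 intensity values for 62976 spots per array, made with Agilent Feature Extraction 10.10.1.1 per the submitters' processing notes. The intensity used is the one that, per the file headers, had its background subtracted within the array. A value table of 36695 probes was also deposited, whose values lie on a log2 scale (lowest correlation 0.9892 with the log2 processed signal). How it was normalized and centred is not given in the sources used; it served as an alternative.

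Here the log2 intensities of a probe's spots were averaged, without outlier spots (42 to 91 per array) and control spots, and the 75th percentile of the array was subtracted. Probes well above background on at least 6 of 8 arrays of a group were kept, and the probe with the highest mean stood for a gene, named by RefSeq accession, symbol or synonym where one matched. The fit used limma 3.58.1 under R 4.3.3 on all 32 arrays (1 mean per group, eBayes, two-sided, Benjamini-Hochberg over 23633 genes, threshold 0.05). The scripts were tested on simulated data. Correlations used 100000 permutations within groups (Python 3.11.15, numpy 2.4.6). The 6 genes and all lists were chosen with earlier results of these data known. Named were the 6 genes, their relatives and neighbours, and the 3 genes with the most similar deviations. Col2a1 and the other markers of the cell type lists were named as members of those lists. The labels do not say whether replicate numbers pair the mice, and the main fit used no pairing. Alternatives covered the normalization, background correction, dim-probe filter, slide, replicate number, probe choice and single mice.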

Additional observations from a re-analysis of the deposited data

Results flagged for a closer look

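The levels of each of the 6 genes in each of the 4 groups, 24 sets of 8 values, were examined for a sample far from the others. Of these sets 2 held one, and chance marks about 1 in 20 sets, but the sets share the same mice. The Sdcbp2 level of replicate 4 of the normal diet controls was -4.15, the highest of its group, with the nearest mouse at -4.74 (gap over range 0.561, above Dixon's 95% value). The Cnmd level of replicate 6 of the normal diet E171 mice was -0.77, the lowest of its group, with the nearest mouse at -0.09 (gap over range 0.606). The causes were not tested.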

How the results depend on the processing

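With normexp background correction the diet difference without E171 was 2.83 for Sdcbp2, 1.67 for Tinag, -1.48 for Moxd1 and -1.60 for Cnmd, and under E171 2.65 for Sdcbp2 and 0.77 for Tinag. In the deposited table it was 4.04 and 3.96 for Sdcbp2 and 3.00 and 1.72 for Tinag. These probes were dim in at least 1 group, and dimness limits the size of their differences. All diet differences kept their sign under the alternatives run, and none of the 6 genes passed the E171 test under any. The adjusted p of Tinag ran from 0.0756 to 0.249 with single mice left out. Genes higher under E171 numbered 45 at the main setting, 21 in the deposited table, 16 without a filter on dim probes (28 lower, against 43) and 84 with the replicate block (66 lower). Neighbours lower without E171 numbered 1 with the percentile over detected probes, 1 in the deposited table, 1 without the filter and 4 with the replicate block. Whether mice of the same number are paired is not said in the labels. Mice of the same number had a median correlation of deviations of 0.069 (-0.298 to 0.571), against -0.018 for mice of other numbers. Of 32 mice, 8 correlated best with their own number. Under the replicate block Moxd1 with the hepatocyte and male-biased lists no longer passed (r = 0.277 and 0.3). In the 16 Western diet mice 6 pairs passed and Avpr1a with lipid droplet genes was 0.125. In the 16 normal diet mice 0 pairs and 1 list relation passed, and the sign turned for Cnmd with Tinag (0.193), Ly6d with the hepatocyte (0.462) and periportal (0.142) lists, Sdcbp2 with the hepatocyte (0.006), male-biased (0.041) and pericentral (0.434) lists, Tinag with the pericentral list (0.305) and Cnmd with it (-0.163). With 8 of 8 arrays required, Moxd1 had no value. Single-mouse exclusion and array brightness were chosen after seeing the data.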

Other observations

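Among normal diet E171 mice, replicate 6 had the highest Ly6d (-0.20) and Moxd1 (-3.16) and the lowest Cnmd (-0.77) and Avpr1a (3.56) of its group. Among normal diet controls, replicate 5 had the highest Ly6d (0.23) and Moxd1 (4.17) and the lowest Cnmd (-1.26) and Avpr1a (3.78). Their arrays correlated with the others of their groups at a mean of 0.989 each. That was the lowest mean of the E171 group and, shared with replicate 4, of the controls. In normal diet mice the 75th percentile of the array had r = -0.432 with Ly6d and -0.556 with Moxd1 (deviations from group means). With Cnmd and Avpr1a it had 0.425 and 0.625, and the part of array brightness in this pattern was not tested. In the 16 normal diet mice Ly6d and Moxd1 deviations had r = 0.632 (0.328 without the 2 most extreme mice), and Moxd1 was well above background in 11 of them.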
